A study of Mus musculus with 4 samples.

Results

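The genes described here encode the proteins of the cytosolic ribosome. Members were the protein-coding genes of the deposited table whose symbols read Rpl or Rps, a number and at most 1 of the letters a, l or x, together with Rplp0, Rplp1, Rplp2 and Rpsa. The rule took 80 of 52636 genes, 49 of the large and 31 of the small subunit, on 19 chromosomes, and used no measured value. RNA had been sequenced from mouse Th17 cells, helper T cells named after their cytokine interleukin 17, in 2 libraries of the genotype labelled PP2A WT and 2 of that labelled PP2A cKO. PP2A is a major serine/threonine phosphatase with subunits for catalysis, scaffolding and regulation, and the labels give neither the subunit targeted nor the cells or promoter that drove a deletion. All 4 libraries came from C57BL/6 T cells, naive at the start, which were polarized for 2 days beside irradiated antigen presenting cells. The medium held anti-CD3, anti-CD28, IL-6 and TGFβ1, and blocking antibodies removed IL-4 and IFN-γ. PMA and ionomycin then restimulated the cells of both genotypes for 4 hours. The study asked whether Th17 differentiation needs PP2A, and for these genes the comparison is cKO against WT, the large against the small subunit, and each cKO library apart.

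A ribosome reads mRNA on its small subunit and joins amino acids on its large subunit, and each subunit is a shell of proteins on ribosomal RNA made in near equal numbers of copies. Ribosomal protein mRNAs are among the most abundant of a dividing cell, and activated T cells make many more ribosomes than naive ones. In mammals these mRNAs begin with a terminal oligopyrimidine (TOP) tract, a C followed by further pyrimidines. Through this tract mTORC1, partly by way of the RNA-binding protein LARP1, controls how much of each is translated and how stable it is. PP2A is known to act against several kinases of this pathway, among them AKT and S6 kinase.

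In the FPKM values fragments are scaled to the length of the gene and to a total per library. They rested on 18517487 to 20387948 gene-assigned reads per library. The totals implied by the values were 19567961 and 19105296 in WT and 20317062 and 19393050 in cKO. Gene-assigned reads were 19347055 and 18517487 in WT and 20387948 and 19521977 in cKO. The implied totals thus lay above the assigned reads in WT and below them in cKO, so FPKM and read shares are scaled differently. The cKO libraries differed from each other more than the WT libraries did, since a chi-square over genes, divided by its degrees of freedom, was 27.9 in cKO and 4.63 in WT. The labels call the replicates biological but name no mice or cultures, so a p-value here rests on the spread between libraries, which may be partly technical. Ppp2ca, the main catalytic gene of PP2A, read 42.2 and 50.1 FPKM in WT and 41.8 and 34.5 FPKM in cKO (limma, adjusted p = 0.36). Ppp2cb read 95.4 and 89.6 FPKM in WT and 91.3 and 103 FPKM in cKO. Ppp2r1a read 99.9 and 100 FPKM in WT and 86.4 and 110 FPKM in cKO. Ppp2r1b read 29.7 and 27.7 FPKM in WT and 28.7 and 25.5 FPKM in cKO. The genotypes overlapped for Ppp2cb, Ppp2r1a and Ppp2r1b. The labels do not say whether the counted part of any PP2A gene was deleted. The Th17 label was met by 5 of 5 markers at 1 FPKM or more, with a summed level of 3813 to 4154 FPKM in WT and 2939 to 3040 FPKM in cKO. The 7 T cell markers summed to 977 to 1003 FPKM in WT and 1283 to 1374 FPKM in cKO. Markers of B cells, macrophages, dendritic cells, NK cells, granulocytes and red cells summed to at most 5.53 FPKM per cell type in each library, with Ncr1, Klrb1c, Elane, S100a8, S100a9 and Hbb-bt at 0. The 2 CD8 T cell markers summed to 7.61 and 8.24 FPKM in WT and 9.28 and 10.2 FPKM in cKO, with 1 of 2 at 1 FPKM or more, and the part of other cells in the results was not tested.

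Of the 80 members, 77 reached the filter of 1 FPKM on average and were tested, 46 of the large and 31 of the small subunit. The 3 others are paralogues known from muscle or testis. Rpl10l was listed at 0 in all libraries, Rpl3l had 1 read in all, and Rpl39l read 0.984, 0.819, 0.77 and 1.3 FPKM in WT replicates 1 and 2, then cKO replicates 1 and 2, on 13 to 21 reads. Among the tested members the mean level ran from 1.52 to 3873 FPKM with a median of 502 FPKM. A mean over 100 FPKM was reached by 73 of them, and by 5.07% of all 10562 genes tested.

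The 5 highest levels per length belonged to Rplp1, Rplp0, Rpl8, Rps15 and Rps2. Rplp1, an acidic protein of the stalk that recruits translation factors, read 3627, 3697, 4357 and 3810 FPKM in WT replicates 1 and 2, then cKO replicates 1 and 2. Rplp0, which anchors the stalk to the large subunit, read 2738 and 2613 FPKM in WT and 2416 and 2771 FPKM in cKO. Rpl8, a protein at the catalytic core of the large subunit, followed with 2200 and 2122 FPKM in WT and 2602 and 2279 FPKM in cKO. Rplp1 was highest in every library and did not overlap the others, while Rplp0 and Rpl8 overlapped, since Rpl8 was the higher of these in cKO replicate 1. Rps15, at the head of the small subunit, read 1408 and 1404 FPKM in WT and 1946 and 1465 FPKM in cKO. It overlapped Rps2, which was the higher of these in all libraries but cKO replicate 1. At the other end stood Rpl24, with 1.19 and 1.27 FPKM in WT and 2.05 and 1.55 FPKM in cKO, on 24 to 43 reads. For Rpl24 80.1% of the 100-base windows of its main transcript also occur in other genes. The non-members among the 5 genes that share them held 331 to 420 reads, so its level is uncertain. Rpl13a, whose protein is also known as a translational silencer in inflammation, was the next lowest at 32.5 and 35.8 FPKM in WT and 38.7 and 30.4 FPKM in cKO. Of its windows, 55.2% also occur in other genes.

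**Figure D1:**
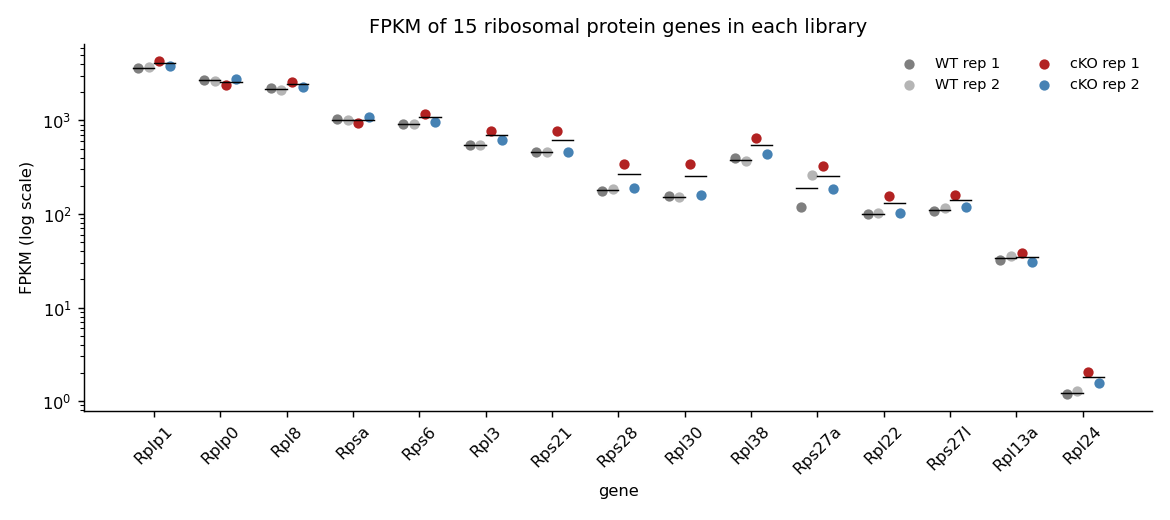
FPKM (y axis, log scale) of 15 ribosomal protein genes (x axis, in about the order of their level) in each of the 4 libraries. Points are libraries, and short lines are the means of the 2 libraries of a genotype. Rplp1 lies highest at 3627 to 4357 FPKM and Rpl24 lowest at 1.19 to 2.05 FPKM, and cKO replicate 1 is the highest point for most genes but not for Rplp0 and Rpsa.

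No member passed the test between genotypes. limma on log2(FPKM + 1), adjusted by Benjamini-Hochberg over all genes tested, called 113 of 10562 genes at 0.05, a share of 1.07%, of which 86 (0.814%) were higher in cKO. It called 0 of 77 members. The lowest adjusted p of a member was 0.18, for Rpl21, and 2 members had an unadjusted p under 0.05. voom on the reads behind the FPKM values also called 0 members, with 6 at an unadjusted p under 0.05 and a lowest adjusted p of 0.106. On the FPKM scale nearly all members had the same sign of the difference. The log2 fold change was above 0 for 75 of 77, with a median of 0.24, while the median of all genes tested was -0.0034. The count depended on the scaling. With TPM, which rescales FPKM to equal sums, 67 of 77 were above 0 with a median of 0.15. The median of all genes was then itself -0.092, and relative to it the members stood at 0.241, against 0.245 with FPKM. After quantile normalization 49 of 77 were above 0, with a median of 0.06. That method gives every library the same set of values. Most members are among the highest genes, so it can remove a rise that they share. Both cKO libraries lay above both WT libraries for 65 of 77 members, 40 of the large and 25 of the small subunit, against 27.2% of all genes tested. Both lay below for 0 members, against 28.7% of all genes. Since members share libraries, their signs are not independent of each other.

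The size of the difference rested on 1 cKO library. Against the WT mean, cKO replicate 1 had a median log2 difference of 0.38 over the members, about 1.3-fold, and lay above WT for 74 of 77. cKO replicate 2 had a median of 0.08, about 1.06-fold, and lay above WT for 75 of 77. The WT libraries differed from each other by a median of 0.011, and 72 members agreed between them within 10%. cKO replicate 1 was the highest of the 4 libraries for 67 members and cKO replicate 2 for 9. A level over 1.2 times the WT mean was seen for 54 members in cKO replicate 1 and for 2 in cKO replicate 2. A level over 1.5 times was seen for 19 in cKO replicate 1 and for 0 in cKO replicate 2.

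**Figure D2:**
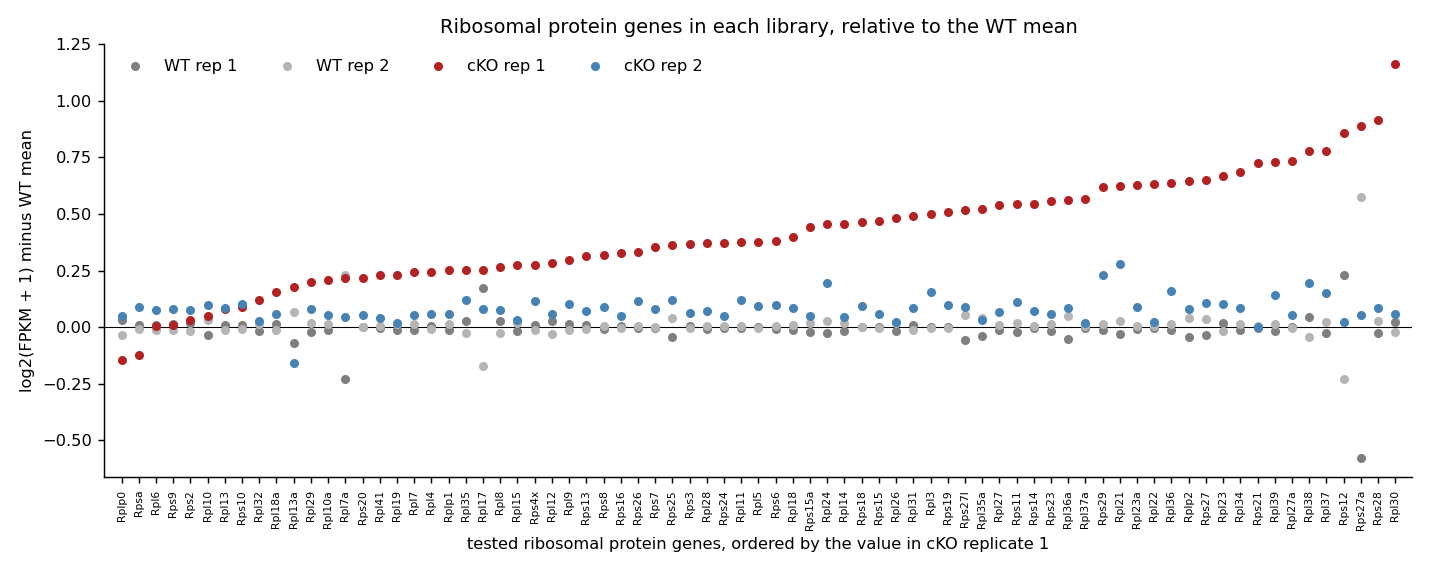
Difference of log2(FPKM + 1) from the WT mean (y axis) for 75 of the 77 tested members (x axis, ordered by cKO replicate 1), with 1 point per library. The order itself was set by cKO replicate 1. The points of cKO replicate 1 run from about -0.15 for Rplp0 to 1.16 for Rpl30, while those of cKO replicate 2 lie near their median of 0.08 along the whole axis.

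When cKO replicate 2 was left out, limma called 61 of 77 members higher, against 13.2% of all genes. That fit sets 1 cKO library against 2 WT libraries and assumes that it would vary as they do. When cKO replicate 1 was left out, 0 members were called, against 1.4% of all genes called higher, with 12 members at an unadjusted p under 0.05 and a lowest adjusted p of 0.0738. The median log2 fold change was 0.38 in the former fit and 0.08 in the latter. In bulk RNA a change in the share of cells of a type and a change in RNA per cell cannot be told apart.

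The members took 7.48% and 7.63% of the gene-assigned reads in WT and 9.2% and 7.74% in cKO. Both cKO libraries were above both WT libraries, cKO replicate 2 by less than the distance between the WT libraries. The means were 7.55% ± 0.108 in WT and 8.47% ± 1.03 in cKO (SD, n = 2), and the exact permutation test, two-sided, gave p = 0.333, the smallest it can give with 2 libraries against 2. As a share of summed FPKM, which weighs transcripts rather than bases, they took 13.8%, 14.1%, 16.3% and 14.0% in WT replicates 1 and 2, then cKO replicates 1 and 2, and there the genotypes overlapped (exact permutation p = 0.667). The 276 annotated pseudogenes of ribosomal proteins took 0.268%, 0.284%, 0.335% and 0.281% of the reads in the same order of libraries, again with cKO replicate 1 highest.

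The large subunit took more reads than the small one in every library. The large subunit took 4.29% and 4.37% of the reads in WT and 5.28% and 4.43% in cKO. The small subunit took 3.19% and 3.26% in WT and 3.92% and 3.31% in cKO. Their ratio in reads was 1.348 and 1.342 in WT and 1.348 and 1.338 in cKO, a difference of means of -0.0015 (exact permutation p = 1). By summed FPKM the ratio was 1.579 and 1.567 in WT and 1.524 and 1.563 in cKO, and the lower values of both cKO libraries gave the smallest p that the design allows, 0.333. The median log2 difference of cKO replicate 1 from WT was 0.38 for both subunits, and that of cKO replicate 2 was 0.08 for both.

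**Figure D3:**
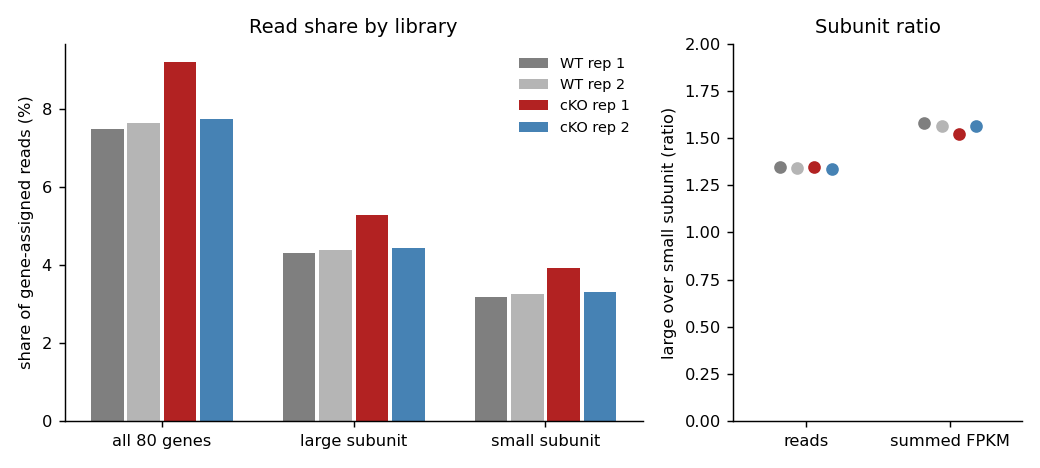
Left, percent of gene-assigned reads (y axis, from 0) taken by all 80 members, by the large and by the small subunit, with 1 bar per library. Right, the ratio of the large to the small subunit in each library, by reads and by summed FPKM. cKO replicate 1 stands at 9.2% against 7.48% to 7.74% in the other libraries, while the ratio by reads lies between 1.338 and 1.348.

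The 8 highest log2 fold changes belonged to Rpl30, Rps28, Rpl38, Rps27a, Rpl37, Rpl21, Rps12 and Rpl39. Rpl30, a large subunit protein that in yeast regulates the splicing of its own transcript, read 156 and 151 FPKM in WT and 345 and 159 FPKM in cKO (log2 fold change 0.61 ± 0.36 SE, adjusted p = 0.392). cKO replicate 1 stood 2.25-fold above the WT mean and cKO replicate 2 1.04-fold. The gene lies on chromosome 15 at 34440505 to 34443640 (GRCm38, minus strand), and 53.5% of its windows occur in other genes. Summed with the non-members among the 10 genes that share them it held 10599, 10619, 21943 and 11508 reads, so the excess of cKO replicate 1 remained in the sum.

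Rps28, a small subunit protein mutated in Diamond-Blackfan anaemia, an inherited failure of red cell production, read 176 and 183 FPKM in WT and 339 and 191 FPKM in cKO (0.5 ± 0.28 SE, adjusted p = 0.37). Rpl38, which mouse embryos need for the translation of Hox mRNAs, read 392 and 369 FPKM in WT and 654 and 436 FPKM in cKO (0.49 ± 0.21 SE, adjusted p = 0.282). Rpl37, a zinc-binding large subunit protein, read 500 and 517 FPKM in WT and 874 and 564 FPKM in cKO. Rpl39, a short protein that lines the exit tunnel of the nascent chain, read 284 and 290 FPKM in WT and 476 and 317 FPKM in cKO, with 1.75% of its windows shared. In each of these 4 genes both cKO libraries lay above both WT libraries, and cKO replicate 1 was far above the other 3 libraries.

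Rpl21 had the lowest adjusted p and the most even cKO pair among these genes, with 44.9 and 46.7 FPKM in WT and 71.1 and 55.7 FPKM in cKO (0.45 ± 0.14 SE, adjusted p = 0.18). cKO replicate 2 was 1.22-fold above the WT mean here. Rpl21 lies on chromosome 5 at 146832890 to 146837032 (plus strand). It shares windows with 40 other genes. The non-members among them held 4826 to 6026 reads together, more than its own 2984 to 4908. Rps29, whose gene is also mutated in Diamond-Blackfan anaemia, was named after its values were seen because it had the other unadjusted p under 0.05. It read 429 and 437 FPKM in WT and 665 and 509 FPKM in cKO (0.43 ± 0.16 SE, adjusted p = 0.229).

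Rps12 and Rps27a differed as much within WT as between genotypes. Rps12, a small subunit protein that in flies marks cells for cell competition, read 320 and 232 FPKM in WT and 495 and 277 FPKM in cKO. Rps27a, which is made as a fusion to ubiquitin, read 118 and 263 FPKM in WT and 327 and 183 FPKM in cKO (0.47 ± 0.45 SE, adjusted p = 0.58). In both genes cKO replicate 2 lay between the WT libraries, and 81.6% and 69.1% of their windows are shared with other genes. With the non-members among the 4 genes that share its windows, Rps27a still held 5831 and 10706 reads in WT, so the difference within WT was also present in that sum. Rps21 showed the gap between the cKO libraries without any shared window, at 460 and 462 FPKM in WT and 764 and 461 FPKM in cKO, where cKO replicate 2 lay between the WT values. Across members, the 12 with at most 10% of windows shared had a median of 0.41 in cKO replicate 1 and 0.06 in cKO replicate 2, and 10 of the 12 had both cKO libraries above WT, against 27.2% of all genes tested. The 65 others had medians of 0.38 and 0.08.

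Among the lowest log2 fold changes were those of Rplp0, Rpsa, Rpl13a, Rpl6, Rps9, Rps2 and Rpl10, whose coding sequences of 582 to 951 bases are longer than the median of the members, 453 bases. The genotypes overlapped for 12 tested members, among them Rpl6, Rpl7a, Rpl13a, Rpl17, Rpl35a, Rplp0, Rps9, Rps12, Rps21, Rps27a and Rpsa. Rplp0 had a log2 fold change of -0.05 ± 0.12 SE, with cKO replicate 1 at 0.903 times and cKO replicate 2 at 1.04 times the WT mean. Rpsa, a small subunit protein also described as a laminin receptor, read 1026 and 1015 FPKM in WT and 938 and 1085 FPKM in cKO, so that cKO replicate 1 was lowest and cKO replicate 2 highest. By contrast Rpl3, a protein next to the peptidyl transferase centre with a long coding sequence of 1209 bases, had the excess all the same, at 550 and 548 FPKM in WT and 777 and 612 FPKM in cKO. Rpl6, Rps9, Rps2, Rpl10 and Rpl13 lay within 0.1 of the WT mean in both cKO libraries. Among them Rps2, a protein near the entry of the mRNA channel, read 1534 and 1496 FPKM in WT and 1549 and 1597 FPKM in cKO. Rps10, a protein that is tagged with ubiquitin when ribosomes collide, also differed little between the cKO libraries, at 291 and 287 FPKM in WT and 307 and 310 FPKM in cKO.

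The 3 stalk genes thus differed among themselves. Rplp2, the partner of Rplp1 in the stalk dimers, read 367 and 389 FPKM in WT and 592 and 400 FPKM in cKO. Relative to WT, cKO replicate 1 was 1.57-fold for Rplp2, 1.19-fold for Rplp1 and 0.903-fold for Rplp0, while cKO replicate 2 was 1.04-fold to 1.06-fold for all 3. These ratios were not tested against each other.

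Several members also have known roles in signalling or disease. Rps6, the substrate after which S6 kinase is named, read 906 and 915 FPKM in WT and 1186 and 974 FPKM in cKO (0.24 ± 0.13 SE, adjusted p = 0.378). Rpl5 and Rpl11, which bind the 5S ribosomal RNA and, when free, the p53 ligase MDM2, were 1.3-fold the WT mean in cKO replicate 1. Rpl5 read 352 and 351 FPKM in WT and 456 and 375 FPKM in cKO, and Rpl11 355 and 357 FPKM in WT and 461 and 387 FPKM in cKO. All 6 members listed as 5S RNP or MDM2-binding proteins had both cKO libraries above WT, with medians of 0.38 and 0.09 in cKO replicates 1 and 2. Of 18 genes mutated in Diamond-Blackfan anaemia, 17 did, against 27.2% of all genes tested, with medians of 0.43 and 0.09, and 0 passed the test. Their log2 fold changes ran from 0.094 for Rps10 to 0.50 for Rps28. Rps19, the first gene linked to the disease and a protein of the small subunit head, read 185 and 184 FPKM in WT and 263 and 198 FPKM in cKO (0.3 ± 0.16 SE, adjusted p = 0.354). Rps26, which contacts the mRNA upstream of the start codon, read 703 and 707 FPKM in WT and 888 and 764 FPKM in cKO. In both genes the WT libraries nearly coincided, cKO replicate 2 lay slightly above them and cKO replicate 1 well above. Rps24 had the same order at a lower level, with 150 and 150 FPKM in WT and 194 and 155 FPKM in cKO. The exception among the 18 was Rpl35a, at 111 and 118 FPKM in WT and 165 and 117 FPKM in cKO. These lists overlap the members entirely, and for all members the medians were 0.38 and 0.08.

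Within cKO replicate 1 the size of the difference followed the coding length of the member. Over 77 members, Spearman's rho between coding length and the log2 difference from WT was -0.62 in cKO replicate 1 and -0.08 in cKO replicate 2. Between the WT libraries, for replicate 2 minus replicate 1, it was -0.27 over the members and -0.17 over other protein-coding genes. The 10 members with up to 300 coding bases had a median of 0.69 in cKO replicate 1, the 27 with 300 to 450 bases 0.49, the 19 with 450 to 600 bases 0.35 and the 18 with 600 to 900 bases 0.23, while the 3 with 900 to 1500 bases had 0.24. Other protein-coding genes showed a trend of the same sign in that library. Their medians in these classes were 0.24, 0.18, 0.09, 0.05 and -0.03, and rho was -0.24 over 9122 genes. In each of these classes the members' median thus lay above that of other genes of like length. Rpl41, whose coding sequence of 75 bases is the shortest, was an exception with 972 and 979 FPKM in WT and 1144 and 1004 FPKM in cKO.

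**Figure D4:**
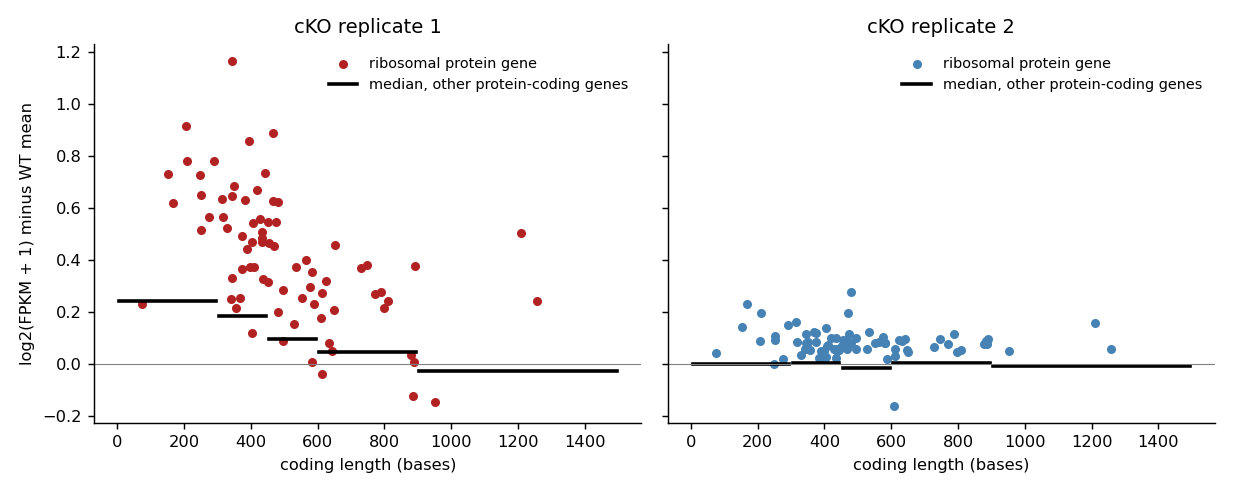
Difference of log2(FPKM + 1) from the WT mean (y axis) against coding length in bases (x axis) for the 77 tested members, in cKO replicate 1 (left) and cKO replicate 2 (right). Black lines are medians of other protein-coding genes in the same length class. Members up to 300 bases have a median of 0.69 in cKO replicate 1 and those of 600 to 900 bases 0.23, with no such slope in cKO replicate 2.

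GC content of the mRNA, which ran with the difference over other genes in cKO replicate 1 (rho = -0.43), did so less over the members (rho = -0.23). Their median GC content was 50.9%, against 50.3% for other protein-coding genes. After each library was corrected for GC content the members' medians were 0.46 and 0.08 in cKO replicates 1 and 2. After a correction for coding length, chosen after the data were seen, they were 0.29 and 0.08. All points of a correlation share 1 library and the same WT mean, and the part of length or GC content in the differences was not tested further.

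The first bases of the genes were read from RefSeq promoter windows (GRCm38.p6), in which 60 of 80 members were found. The TOP tract was searched as a C at the annotated start followed by 4 or more of C or T, on the sense strand. It stood at the start of 13 of 60 members (21.7%) and of 3.01% of all genes in the same table. A run of 8 pyrimidines between 30 bases before and 50 bases after the start was found for 80% of the members and 32.3% of all genes. The tract is shown for 6 members that differ in their values, 10 bases before and 20 from the start, with the pyrimidine run in capitals:

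Rpl38: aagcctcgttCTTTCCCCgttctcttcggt

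Rps27: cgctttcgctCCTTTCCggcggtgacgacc

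Rplp2: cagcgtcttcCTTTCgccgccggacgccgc

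Rps21: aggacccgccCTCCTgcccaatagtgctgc

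Rps6: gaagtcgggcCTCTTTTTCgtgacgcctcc

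Rps10: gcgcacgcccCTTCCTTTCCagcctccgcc

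They lie at chr11:114668570-114668599 (Rpl38, plus strand), chr3:90213629-90213658 (Rps27, minus), chr7:141447641-141447670 (Rplp2, plus), chr2:180257369-180257398 (Rps21, plus), chr4:86857348-86857377 (Rps6, minus) and chr17:27635225-27635254 (Rps10, minus). In cKO replicate 1 their log2 differences from WT were 0.78, 0.65, 0.65, 0.73, 0.38 and 0.09 in the order printed. Rps10, with a run of 10 pyrimidines from the annotated start, had the lowest value, and Rplp2 and Rps21, with 5, were among the higher ones. In each of these genes a pyrimidine also stands directly before the start, so the length of the run depends on the annotation. A relation between run length and the difference was not tested. The 13 members with the tract at the annotated start had a median of 0.46 in cKO replicate 1, and the 44 tested members whose window lacks it there 0.37. In cKO replicate 2 both medians were 0.08. Annotated starts can be off by several bases, so the lack of a match says only that these letters are not at that position. Of 2 other motifs searched on both strands of the 300-base windows, CCGGAAGT occurred in 20% of the members and 4.31% of all genes, and AAGATGGC in 8.33% and 3.19%.

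For most paralogues the share of the pair overlapped between genotypes. Rps27l, a small subunit paralogue known as a p53 target, read 107 and 116 FPKM in WT and 160 and 119 FPKM in cKO, or 20.3%, 20.8%, 19.1% and 20.3% of its pair with Rps27 in the order of libraries. Rpl22, which developing T cells need, read 101 and 101 FPKM in WT and 157 and 103 FPKM in cKO. Its paralogue Rpl22l1 made up 32.7% and 32.8% of that pair in WT and 29.1% and 33.2% in cKO, so the genotypes overlapped in both pairs. Rpl7l1, which works in the assembly of the large subunit, made up 18.3% and 17.9% of its pair with Rpl7 in WT and 16.2% and 16.5% in cKO, without overlap (exact permutation p = 0.333, the smallest possible). Rps4l, which is not protein-coding in the table, read 8.67 and 5.05 FPKM in WT and 3.39 and 6.34 FPKM in cKO. The lowest of these was cKO replicate 1, in which its partner Rps4x was highest, at 766 and 755 FPKM in WT and 920 and 824 FPKM in cKO. Rpl36al held 0.986% to 1.15% of its pair with Rpl36a.

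Most ribosomal proteins with other symbols had the direction of the members. Of 7, 5 had both cKO libraries above WT, against 27.2% of all genes tested, while the genotypes overlapped for Rpl7l1 and Rack1. The medians of the 7 were 0.34 and 0.07 in cKO replicates 1 and 2. Rps3a1, a small subunit protein, read 1681 and 1679 FPKM in WT and 2281 and 1760 FPKM in cKO. Fau, a ubiquitin-like fusion to a small subunit protein, read 1253 and 1192 FPKM in WT and 1523 and 1327 FPKM in cKO. Rack1, a scaffold on the small subunit, had cKO replicate 1 lowest, at 397 and 386 FPKM in WT and 345 and 402 FPKM in cKO.

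In the lists of elongation factors, initiation factors and other TOP mRNAs 0 genes passed the threshold. Their counts without overlap between genotypes stand beside 27.2% of all genes tested above WT in both cKO libraries and 28.7% below. Of 7 elongation factors 4 had both cKO libraries above WT, with medians of 0.17 and 0.09 in cKO replicates 1 and 2. Eef1b2, an exchange factor of elongation factor 1, read 286 and 289 FPKM in WT and 406 and 307 FPKM in cKO. Eef2, the translocase of the ribosome, had cKO replicate 1 lowest and cKO replicate 2 highest, at 2045 and 1979 FPKM in WT and 1625 and 2222 FPKM in cKO. Of 28 initiation factors 15 lay above WT in both cKO libraries and 3 below, with medians of 0.13 and 0.05. The log2 fold change farthest from 0 was that of Eif1, which guards start codon choice. It read 164 and 165 FPKM in WT and 251 and 208 FPKM in cKO (0.47 ± 0.13 SE, adjusted p = 0.14). The list of 17 other mRNAs known for a TOP start repeats genes of the elongation and initiation factor lists, and Rack1. Of the 17, 11 lay above in both and 1 below, with medians of 0.17 and 0.07. Among these, Hnrnpa1, a splicing regulator, read 500 and 502 FPKM in WT and 748 and 556 FPKM in cKO.

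The mRNAs of the pathway that controls TOP mRNAs had no common direction in cKO replicate 1, where 7 of 15 lay above WT. The list mixes activators and inhibitors, so its median says nothing of the activity of the pathway, which was not tested. The 15 tested genes of mTORC1, S6 kinase and TOP regulation had medians of -0.16 and 0.02 in cKO replicates 1 and 2. Of these, 5 lay above WT in both libraries (33.3%) and 3 below (20.0%), against 27.2% and 28.7% of all genes tested. The test called 0 of them, against 1.07% of all genes. Mtor, the kinase itself, read 10.6 and 9.34 FPKM in WT and 7.42 and 8.71 FPKM in cKO. Tsc2, the brake on mTORC1, read 10.1 and 10.6 FPKM in WT and 6.26 and 9.29 FPKM in cKO. Larp1 read 123 and 119 FPKM in WT and 109 and 121 FPKM in cKO. Eif4ebp1, which holds back cap-dependent initiation, read 18.2 and 16.7 FPKM in WT and 22.2 and 22.7 FPKM in cKO (0.35 ± 0.094 SE, adjusted p = 0.136). Pdcd4, an inhibitor of the initiation helicase that S6 kinase marks for destruction, read 6.94 and 5.86 FPKM in WT and 11.2 and 8.98 FPKM in cKO (0.58 ± 0.14 SE, adjusted p = 0.113).

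Other large complexes served as a comparison. The 58 tested ribosome biogenesis genes, which make and assemble ribosomal RNA, had medians of 0.07 and -0.02 in cKO replicates 1 and 2, with 19 above WT in both libraries (32.8%) and 18 below (31.0%), near the 27.2% and 28.7% of all genes tested. Taf1c, a part of the promoter factor of RNA polymerase I, lay farthest from 0, at 24.5 and 25.1 FPKM in WT and 14.2 and 24.3 FPKM in cKO (-0.39 ± 0.24 SE, adjusted p = 0.417). The 77 tested mitochondrial ribosomal proteins had medians of 0.04 and -0.11, with 9 above (11.7%) and 23 below (29.9%). Mrpl4 had the log2 fold change farthest from 0, at 28.4 and 27.3 FPKM in WT and 15.3 and 23.7 FPKM in cKO (-0.52 ± 0.21 SE, adjusted p = 0.257). In Mrpl4, as in most members, cKO replicate 1 lay farther from WT than cKO replicate 2 did. The 31 proteasome genes had medians of 0.2 and 0.01, with 13 above (41.9%) and 3 below (9.68%). The 12 tested chaperones of ribosomal proteins had medians of 0.00015 and -0.04. The 14 tested genes of ribosome quality control and nucleolar stress had medians of -0.03 and 0.006, with 5 above (35.7%) and 5 below (35.7%). Of these only Cdkn1a, a cell cycle inhibitor induced by p53, passed the threshold, as higher in cKO. It read 52.5 and 44.7 FPKM in WT and 155 and 138 FPKM in cKO (1.57 ± 0.13 SE, adjusted p = 0.0242). No difference between one of these lists and the members was tested.

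**Figure D5:**
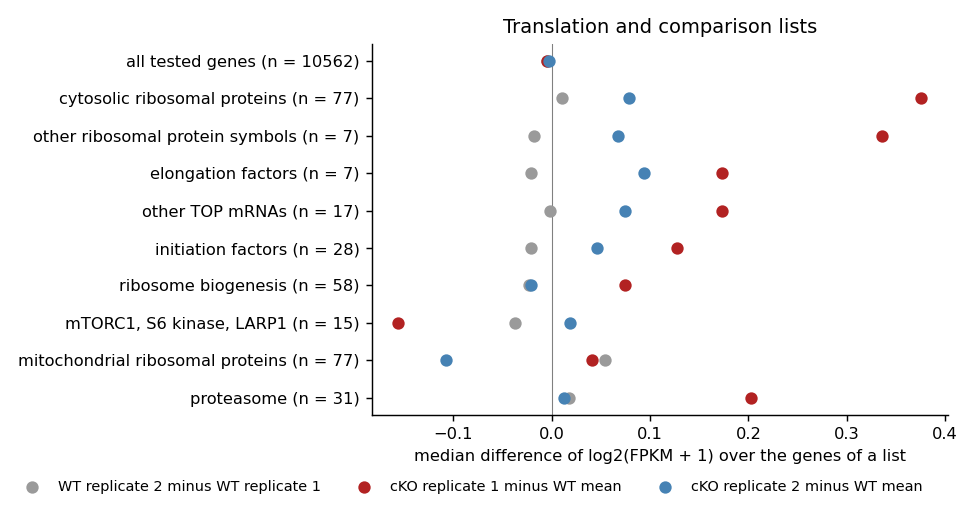
Median difference of log2(FPKM + 1) (x axis) over the tested genes of each list (y axis, number of genes in brackets), for cKO replicate 1 and cKO replicate 2 against the WT mean and for WT replicate 2 against WT replicate 1. The members stand at 0.38 in cKO replicate 1 and 0.08 in cKO replicate 2, while mitochondrial ribosomal proteins stand at 0.04 and -0.11.

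The excess of cKO replicate 1 was present under each scaling tried. That of cKO replicate 2, relative to all genes, was 0.08 with FPKM, TPM, median-of-ratios scaling and the total of non-members. It was -0.01 after quantile normalization, which can remove a rise shared by many of the highest genes. Members' medians in cKO replicates 1 and 2 were 0.26 and 0.01 with TPM, 0.38 and 0.08 with median-of-ratios scaling, 0.37 and 0.04 with the total of genes that are not members, and 0.15 and -0.03 after quantile normalization. The median-of-ratios factors of the deposited values were 1.0032 and 1.0026 in WT and 1.0023 and 1.0042 in cKO. That scaling could therefore hardly move the values and is no separate check. TPM moved the median of all genes by -0.12 in cKO replicate 1 and -0.07 in cKO replicate 2, and relative to these shifts the members stood at 0.37 and 0.08. With the total of non-members the median of all genes was -0.01 and -0.03, and relative to it the members stood at 0.38 and 0.08. The number of members with both cKO libraries above WT was 23 with TPM, against 17.4% of all genes, and 6 after quantile normalization, against 25.4%, with 8 members then below in both.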

How the data were processed

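The deposited values are FPKM per gene, made by the authors from counts of featureCounts 1.5.0-p3 on the mouse build GRCm38 (mm10), per the submitters' processing notes. Not given in the sources used here are the aligner, annotation release, FPKM tool, strand setting and the treatment of reads that match several genes. Reads of a gene and of one that overlaps it, or lies antisense to it, therefore cannot be told apart. Of the tested members, 65 share over 10% of their 100-base windows with other genes and 33 over 50%, so their levels may depend on that treatment. FPKM times gene length was a whole number of reads for 100% of values within 0.01 read, and these reads gave the depths and read shares.

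The test between genotypes was limma 3.58.1 (R 4.3.3) of the values log2(FPKM + 1), with a variance trend, cKO minus WT, for the 10562 genes with a mean of 1 FPKM or more, Benjamini-Hochberg adjusted over these genes, two-sided. Fold changes on this scale understate those of low genes. Errors are the SE of that fit or the SD of 2 libraries. A read share or ratio was tested by exact permutation. The procedure was tested on simulated reads. Replicates of a genotype differed by more than sampling noise.

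Transcript GC content, coding length and shared 100-base windows came from GENCODE M21, which holds 99.6% of the gene IDs, with equal coordinates for 72 of 80 members. A window is shared when it occurs in a transcript of another gene. Read sums of sharing genes took only those that have deposited values and are not members.

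The members, lists and rule for named genes were chosen with earlier results of these data known. Genes were named by the 8 highest and 8 lowest fold changes, the 5 highest and 5 lowest levels, the 5 largest and 5 smallest gaps between the cKO libraries, fixed roles, and the gene farthest from 0 in each list. Rps29, Rpl41, Fau, Rps3a1, Rack1, Eef2, Mtor, Tsc2, Larp1 and Eif4ebp1 were added after their values were seen. Alternatives were other pseudocounts, filters, scalings and variance models, a replicate block, a GC correction, voom, and the omission of each library. The coding length correction, protein-coding genes alone, and the limit on shared windows were chosen after the data were seen. Protein sequences were not analysed here, and a few genes of the members and lists are not reported here by name.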

Additional observations from a re-analysis of the deposited data

How the results depend on the processing

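With 2 libraries per genotype and a cKO pair that differed widely, the members' differences did not pass the threshold while all 4 libraries were kept. The genotypes share replicate numbers in the labels, which do not say whether a number marks a shared day or litter, so the libraries were not treated as pairs. Deviations of replicate 1 from its group mean correlated at -0.093 between genotypes over 10562 genes. With a replicate block limma called 227 genes, and 252 with the GC correction added, against 113 without, and 0 members in either case. The alternatives that kept all 4 libraries called 0 members, and the members' median log2 fold change stayed above 0, from 0.06 after quantile normalization to 0.27 after the GC correction. It was 0.08 without cKO replicate 1 and 0.38 without cKO replicate 2. The number of members called was 0 to 61 when 1 library was left out. The number of genes called was 0 with no filter, 75 with TPM, 520 after the GC correction, 442 after the coding length correction, 500 with protein-coding genes only, 552 with voom, and 55 to 3004 when 1 library was left out, the highest being without cKO replicate 2. The cause of these shifts was not tested.

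Members with both cKO libraries above WT numbered 65 of 77 as deposited, against 27.2% of all genes tested, and 23 with TPM, against 17.4%. After quantile normalization, which can remove a rise shared by many of the highest genes, the number was 6, against 25.4%, with 8 members below in both. Of the 12 members with few shared windows 10 lay above as deposited. The read share of members was 0.919 percentage points higher in cKO, 0.19 without cKO replicate 1 and 1.65 without cKO replicate 2. For the 12 members with few shared windows it was 0.132, since fewer genes were summed. The difference of the subunit ratio was 0.0062 with the other ribosomal protein genes added, -0.029 by summed FPKM and -0.012 without the 5 members with the most reads.

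Of 37 tested members that the rule named, 23 kept their sign in each of the 19 alternatives in which they were tested, Rpl24 not being tested under the filter of 5 FPKM. With TPM the median of all genes was itself at -0.092, and the log2 fold change was below 0 for Rpl10 (-0.021), Rpl13 (-0.010), Rpl13a (-0.084), Rpl6 (-0.052), Rps2 (-0.039) and Rps9 (-0.049). After quantile normalization it was below 0 for Rpl10 (-0.126), Rpl13 (-0.090), Rpl6 (-0.147), Rpl7 (-0.085), Rplp1 (-0.092), Rps10 (-0.110), Rps2 (-0.123), Rps6 (-0.022) and Rps9 (-0.150). Rpl13a was at -0.014 with the total of non-members and at -0.029 after the coding length correction, and Rplp0 was at 0.0016 after the GC correction, with or without the block. When 1 library was left out, the log2 fold change ran from -0.160 to 0.177 for Rpl13a, -0.147 to 0.051 for Rplp0, -0.0012 to 0.727 for Rps21, -0.104 to 1.05 for Rps27a and -0.122 to 0.088 for Rpsa.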
